A study of Daphnia magna with 12 samples.

Results

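The 57 probes described here were raised at least 2-fold by zinc, apart from the unexposed animals, in whole Daphnia magna, a freshwater crustacean used in toxicity testing. They were chosen by their measured log2 ratios out of 4318 probes on 12 arrays. A probe was taken when its mean over the 8 arrays of zinc-exposed animals lay at least 1 log2 unit (2-fold) above its mean over the 4 arrays of unexposed animals. In addition, the lowest zinc array had to lie above the highest unexposed array, both among the arrays with the exposed or unexposed RNA in the dye Cy3 and among those with it in Cy5. Because these values chose the probes, the rise over the unexposed animals is given as a description, and its limma calls are listed beside the background only and support nothing.

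The 3 groups were animals exposed to ZnO nanoparticles, animals exposed to ZnCl2, a soluble zinc salt, and blanks without added zinc, each for 96 h in 4 replicate exposures. Each form was given at its own EC10 for immobilisation (a concentration that immobilises a small share of the animals), and the medium was renewed at 48 h. RNA came from pools of 40 whole animals, so a value averages over all tissues, and more RNA per cell cannot be told apart from more cells of a type. Every pool was hybridised on a 2-colour array against 1 zinc reference, mixed in equal parts from the ZnO, ZnCl2 and blank samples. Replicates 1 and 2 of each group carried the pool in Cy3 and replicates 3 and 4 in Cy5. Values are log2 ratios of pool over reference, so 0 is the level of the mixture.

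Zinc is an essential metal that many enzymes and transcription factors bind, and it is toxic in excess. Animal cells hold free zinc low with metallothioneins, small cysteine-rich proteins that bind it, and with membrane transporters that move it out of the cytosol or into it. In insects and vertebrates the zinc-sensing factor MTF-1 switches on metallothionein and transporter genes when zinc rises. ZnO particles release zinc ions into water as they dissolve, which is why particle and salt are often compared side by side. The probes carry array identifiers only: 0 of the 4318 matched an entry of the RefSeq gene table for Daphnia magna, so no probe is assigned to any of these genes here. Each of the 4318 identifiers has its own stem (the part before P), so no 2 of the 57 share one. The digit after P was 1 in 42.1% of the 57 and in 42.5% of all probes.

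Of the 4318 probes, 66 met the size and 337 met the separation, and 57 met both. The 9 with the size alone reached differences of up to 2.31 (DM07986P1), so the 57 are not simply the largest rises. The label of a strong rise with both forms held for most of them. With ZnCl2 all 57 lay at least 2-fold above the blanks, and with ZnO 49 did. The other 8 lay 1.60-fold (DM11721P3) to 1.99-fold (DM07965P1) above the blanks with ZnO. Over the 57 the median rise was 1.34 with ZnO and 1.57 with ZnCl2 on the log2 scale, against medians of -0.0040 and 0.00055 over all probes. Both comparisons share the 4 blanks. For the mean of both forms, limma (adjusted p under 0.05 over all probes) called 55 of the 57 higher than the blanks, where 8.45% of all probes were. Taken singly, 54 of the 57 passed as higher in ZnO than in the blanks, where 5.77% of all probes did, and 55 passed as higher in ZnCl2, where 6.67% of all probes did. Since the same contrast chose the probes, these counts describe the choice only. DM01294P1 and DM08907P2 passed in neither comparison, and DM05883P1 did not pass with ZnO (limma adjusted p = 0.055).

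**Figure D1:**
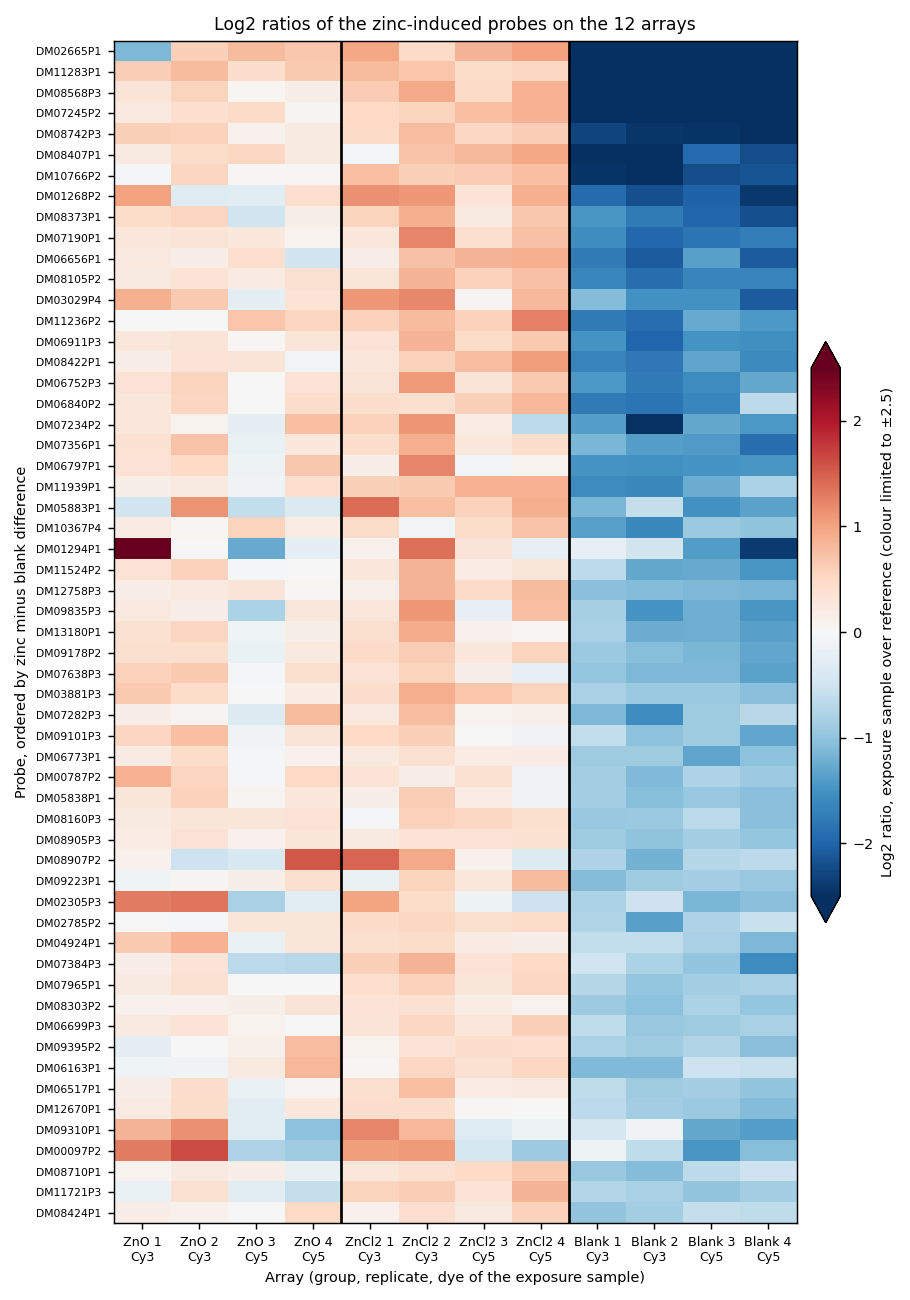
Log2 ratio over the reference of each of the 57 probes (rows, largest zinc minus blank difference at the top) on each array (columns: ZnO, ZnCl2, blank, with the dye of the pool). All 228 blank values are below 0 (blue), and 383 of the 456 zinc values are above 0 (red); blank values beyond -2.5 share the darkest blue.

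At the edge of the size threshold, DM08424P1 (difference 1.02) and DM11721P3 (1.05) were just inside, and DM09301P1 and DM08752P1 (both 0.98) just outside. At the edge of the separation, the lowest zinc value of DM05883P1 lay 0.13 above the highest blank value among the Cy3 arrays, and that of DM01294P1 lay 0.15 above it among the Cy5 arrays. Just outside, DM07032P4 overlapped by 0.20 in the Cy5 arrays (gap -0.20), and DM07518P2 overlapped in both sets, with gaps of -0.25 in Cy3 and -0.65 in Cy5. In 51 of the 57, every zinc array also lay above every blank array when both dye orientations were pooled. The 6 exceptions included DM00097P2, DM02305P3, DM01294P1 and DM05883P1.

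The rises covered a wide range, with a median of 2.76-fold, but only 4 probes exceeded 8-fold and 16 exceeded 4-fold (mean of both zinc forms over blank). DM02665P1 had log2 ratios of -1.13, 0.60, 0.79 and 0.68 in ZnO replicates 1 to 4, of 0.96, 0.47, 0.85 and 1.01 in ZnCl2, and of -5.69, -5.19, -5.43 and -4.43 in the blanks. ZnO replicate 1 was the low zinc array, and it still lay 4.06 above the higher blank of its orientation. Its mean rise was 52.6-fold. DM11283P1 had 0.61, 0.80, 0.45 and 0.66 in ZnO, 0.79, 0.69, 0.45 and 0.51 in ZnCl2, and -3.83, -4.02, -4.06 and -3.97 in the blanks. Its ZnO and ZnCl2 arrays overlapped, the zinc and blank arrays lay more than 4 log2 units apart, and the mean rise was 24.1-fold. It was also among the 3 most even of the 57 probes, with a residual SD of 0.10 after group and dye were removed.

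DM08568P3 had 0.33, 0.56, 0.06 and 0.15 in ZnO, 0.64, 0.94, 0.48 and 0.88 in ZnCl2, and -3.03, -3.68, -3.79 and -3.77 in the blanks, a mean rise of 16.8-fold. Within each orientation both ZnO arrays lay below both ZnCl2 arrays. DM07245P2 had 0.24, 0.42, 0.48 and 0.07 in ZnO, 0.49, 0.55, 0.76 and 0.87 in ZnCl2, and -3.13, -3.41, -3.07 and -3.03 in the blanks, a mean rise of 12.5-fold. Here too the ZnO arrays were the lower pair in both orientations. DM08742P3 had 0.59, 0.57, 0.11 and 0.22 in ZnO, 0.48, 0.78, 0.51 and 0.62 in ZnCl2, and -2.30, -2.44, -2.45 and -2.63 in the blanks (7.68-fold). Its ZnO and ZnCl2 arrays overlapped in Cy3 and did not in Cy5.

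DM08407P1 had 0.23, 0.46, 0.51 and 0.22 in ZnO, -0.05, 0.71, 0.81 and 0.96 in ZnCl2, and -2.69, -2.51, -1.94 and -2.22 in the blanks (7.07-fold). ZnCl2 replicate 1 was the lowest zinc array. DM10766P2 had -0.05, 0.53, 0.02 and 0.02 in ZnO, 0.76, 0.60, 0.63 and 0.76 in ZnCl2, and -2.46, -2.64, -2.21 and -2.15 in the blanks (6.85-fold). All 4 ZnCl2 arrays lay above all 4 ZnO arrays. DM01268P2 had 1.00, -0.33, -0.28 and 0.41 in ZnO, 1.13, 1.09, 0.35 and 0.89 in ZnCl2, and -1.93, -2.19, -2.02 and -2.41 in the blanks (6.38-fold), with ZnO replicates 2 and 3 as its low zinc arrays.

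The next 4 by size rose 4.47-fold to 4.69-fold. DM08373P1 had 0.47, 0.54, -0.51 and 0.15 in ZnO, 0.56, 0.90, 0.23 and 0.68 in ZnCl2, and -1.46, -1.77, -1.98 and -2.20 in the blanks. Its mean ratio was lower in the Cy5 arrays of every group (dye term, Cy3 minus Cy5, 0.48, limma adjusted p = 0.021). DM07190P1 had 0.29, 0.33, 0.27 and 0.10 in ZnO, 0.26, 1.23, 0.41 and 0.73 in ZnCl2, and -1.56, -1.96, -1.82 and -1.74 in the blanks, with ZnCl2 replicate 2 above the other zinc arrays. DM06656P1 had 0.24, 0.17, 0.43 and -0.48 in ZnO, 0.16, 0.73, 0.85 and 0.90 in ZnCl2, and -1.75, -2.09, -1.35 and -2.07 in the blanks, with ZnO replicate 4 lowest of the zinc arrays. DM08105P2 had 0.23, 0.34, 0.20 and 0.39 in ZnO, 0.31, 0.84, 0.58 and 0.73 in ZnCl2, and -1.64, -1.88, -1.65 and -1.67 in the blanks. The ZnO arrays of this probe lay within 0.19 of each other. Signal over background was not used here, so how far the blank signal of the most strongly raised probes lay above background, and with it the size of their folds, was not tested.

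**Figure D2:**
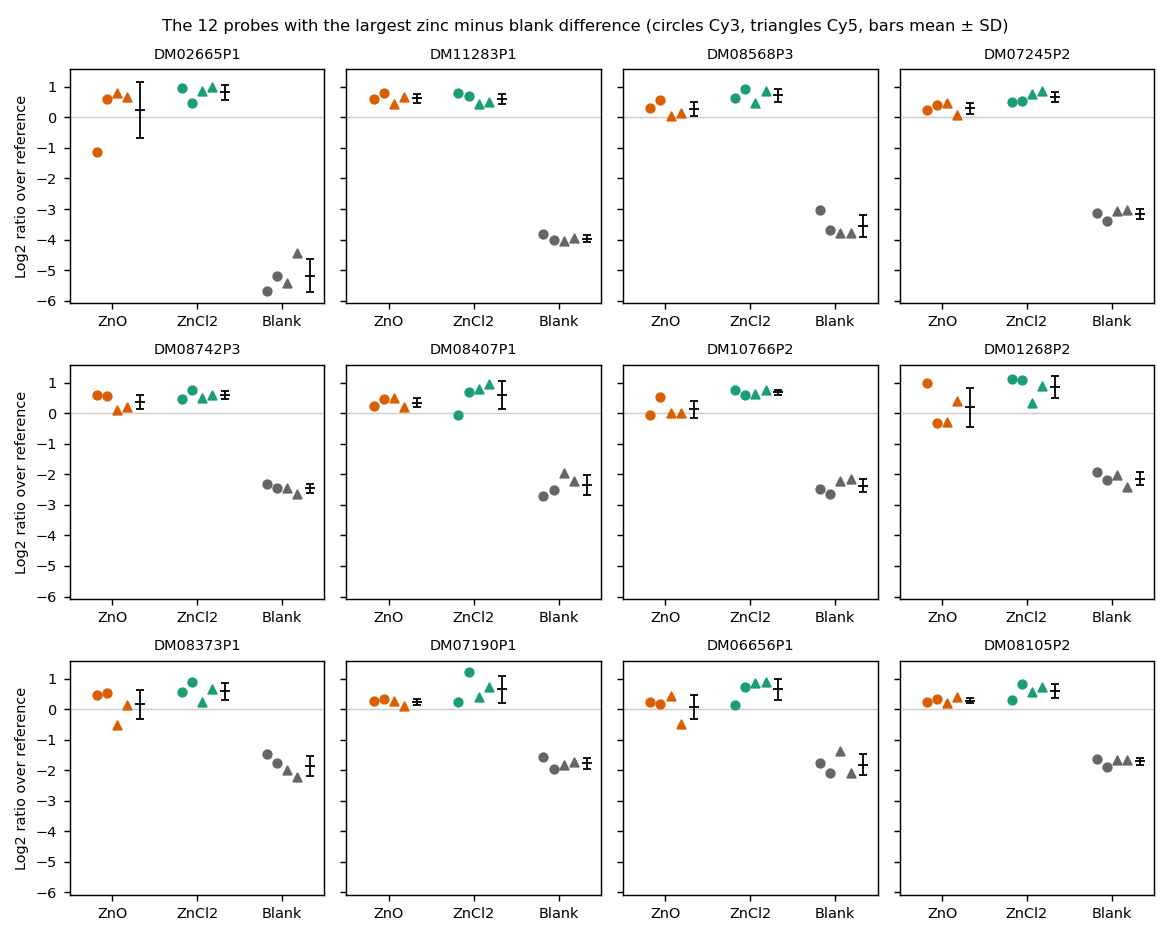
Log2 ratio over the reference (vertical axis) of the 12 probes with the largest zinc minus blank difference, for each ZnO, ZnCl2 and blank array (circles: pool in Cy3; triangles: pool in Cy5; bars: mean ± SD, n = 4). In every panel all zinc arrays lie above all blank arrays, and ZnO replicate 1 stands apart for DM02665P1 at -1.13.

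The remaining 45 probes rose by 2.03-fold (DM08424P1) to 4.45-fold (DM03029P4). Among the 57, 9 had a difference of at least 1.5 and under 2 on the log2 scale and 32 a difference under 1.5. DM08905P3, the most even of the 57 (residual SD 0.094), had 0.18, 0.36, 0.11 and 0.30 in ZnO, 0.22, 0.35, 0.37 and 0.38 in ZnCl2, and -0.89, -1.01, -0.86 and -0.97 in the blanks. DM08303P2 was similar in size and evenness, with 0.11, 0.11, 0.14 and 0.31 in ZnO, 0.34, 0.38, 0.19 and 0.09 in ZnCl2, and -0.90, -1.03, -0.78 and -0.98 in the blanks. In both probes the zinc forms overlapped over all arrays and the blanks stood apart. Within orientations, the ZnO arrays lay below the ZnCl2 arrays in Cy5 for DM08905P3 and in Cy3 for DM08303P2. The forms overlapped in the other orientation of each.

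The least even probe was DM01294P1 (residual SD 1.02), with 3.17, -0.0046, -1.25 and -0.24 in ZnO, 0.11, 1.37, 0.32 and -0.20 in ZnCl2, and -0.21, -0.46, -1.41 and -2.39 in the blanks. ZnO replicate 1 was far above every other array, ZnO replicate 3 lay below blank replicates 1 and 2, and the zinc and blank arrays were separate only within each orientation. DM08907P2 (residual SD 0.77) had 0.11, -0.51, -0.39 and 1.55 in ZnO, 1.45, 0.96, 0.10 and -0.33 in ZnCl2, and -0.76, -1.18, -0.71 and -0.66 in the blanks, with ZnO replicate 4 and ZnCl2 replicate 1 high. DM07234P2 (residual SD 0.61) had 0.28, 0.09, -0.22 and 0.76 in ZnO, 0.58, 1.10, 0.19 and -0.65 in ZnCl2, and -1.37, -2.47, -1.28 and -1.43 in the blanks, with ZnCl2 replicate 4 low among the zinc arrays. The spread between pools in the 57 was somewhat above that of all probes. The median residual SD was 0.23, against 0.17 over all probes, and the median SD between pools after the dye term was removed was 0.22 in ZnO, 0.23 in ZnCl2 and 0.17 in the blanks.

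The choice used differences between groups and not the level against the reference. That level is set beside the stated mixture as a description only, because the direction and log base of the ratios were themselves read with the help of the mixture. If ZnO and ZnCl2 pools hold a transcript at the same level, an equal mixture of 3 parts puts their ratio at 0.58 at most, however large the rise. The mean zinc ratio of the 57 probes lay between 0.18 and 0.62, and 2 of them, DM11283P1 and DM03029P4, lay above 0.58. The log2 of the mean linear ratio over the 3 groups, which is 0 for an exact equal mixture, had a median of -0.0034 (range -0.14 to 0.18) over the 57 and of -0.010 over all probes. Within the 16 probes raised at least 4-fold, ZnO means lay between 0.089 and 0.63 and ZnCl2 means between 0.57 and 0.87. With a rise this large the blanks add little to the mixture, so forms that differ tend to fall on opposite sides of 0.58. In 14 of the 16 the ZnO mean was below 0.58 and the ZnCl2 mean above it, which largely restates the sign of their difference. The exceptions were DM11283P1, at 0.63 in ZnO and 0.61 in ZnCl2, and DM06911P3, at 0.24 in ZnO and 0.57 in ZnCl2.

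**Figure D3:**
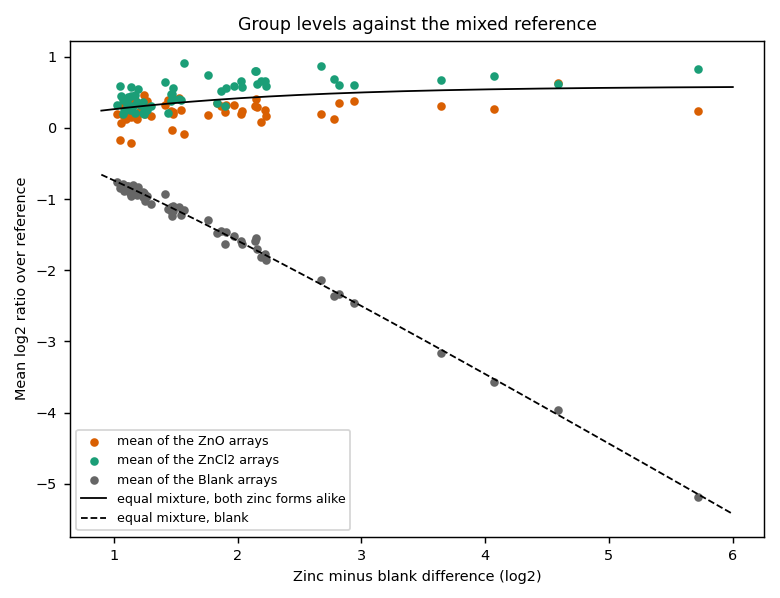
Mean log2 ratio over the reference in ZnO, ZnCl2 and blank arrays (n = 4 each) of the 57 probes against their zinc minus blank difference. Lines show what an equal mixture gives when both zinc forms hold the same level (solid: zinc; dashed: blank); the blank means follow the dashed line and most ZnCl2 means lie above the solid line with the ZnO means below it.

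The comparison of nanoparticle with salt was the one the choice of probes had not used, since it went by the mean of both forms. The separation asked that the arrays of both forms lie above the blanks in each orientation, however. Responses to 1 form alone were therefore largely kept out, but a small or chance rise with the other form was enough to enter. DM05883P1, for example, did not pass with ZnO (limma adjusted p = 0.055). The difference between the forms had no threshold of its own. It was bounded all the same, because the lower form had to stay above the blanks, and more tightly where the rise was small. Since each form was dosed by its own toxicity, the amount of zinc and its form cannot be told apart here. Most of the 57 probes had a somewhat lower mean with ZnO than with ZnCl2. The ZnO mean lay below the ZnCl2 mean in 48 of the 57 (84.2%), where 55.8% of all probes had this sign, and the median difference was -0.25 on the log2 scale, against -0.02 over all probes. In linear terms the median ZnO level was 83.9% of the ZnCl2 level. For single probes the difference did not pass: limma called 0 of the 57 and 0 of the 4318 (0% of all probes), with adjusted p of at least 0.71 in the 57. At an unadjusted limma p under 0.05 there were 24 of the 57, where 5.7% of all probes had one. All 24 were lower in ZnO, a direction in which 3.36% of all probes had one. The 57 probes moved together between pools of the same group and dye, as described below. Counts of probes are therefore not counts of independent differences, and the comparison rests on the few pools of each form.

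The lower level with ZnO appeared in both dye orientations. The median difference over the 57 was -0.21 in the Cy3 arrays and -0.30 in the Cy5 arrays, against 0.0057 and -0.04 over all probes. In 38 of the 57 ZnO lay below ZnCl2 in each orientation (29.1% of all probes), and in 4 it lay above in each (22% of all probes). In 12 of the 57 both ZnO arrays lay below both ZnCl2 arrays within each orientation, where 4.49% of all probes did so. The opposite separation was seen in 0 of the 57 and in 2.73% of all probes. With each array's median set to 0 the median difference was -0.23, with 47 probes lower in ZnO. These counts, too, are over probes that moved together. Among the Cy3 pools the forms barely separated: the median of the 57 was 0.406 in ZnO replicate 2 and 0.409 in ZnCl2 replicate 1. In Cy5 the nearest medians were 0.26 in ZnO replicate 4 and 0.34 in ZnCl2 replicate 3.

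The median difference was larger among the probes with the larger rises, a grouping made after the values were seen and not tested. Probes with a smaller rise also had less room for ZnO to fall below ZnCl2, since both forms had to lie above the blanks. Of the 16 raised at least 4-fold, 15 were lower in ZnO, with a median difference of -0.42 and a median ZnO level of 74.8% of that with ZnCl2. Of the 41 raised less, 33 were lower, with a median of -0.16 and 89.3%. The 280 probes that met the separation with a difference under 1 had a median of -0.02, and 162 of them were lower in ZnO. DM11283P1 was the exception among the 16, at 0.02 (95% interval -0.17 to 0.20, limma adjusted p = 0.98).

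**Figure D4:**
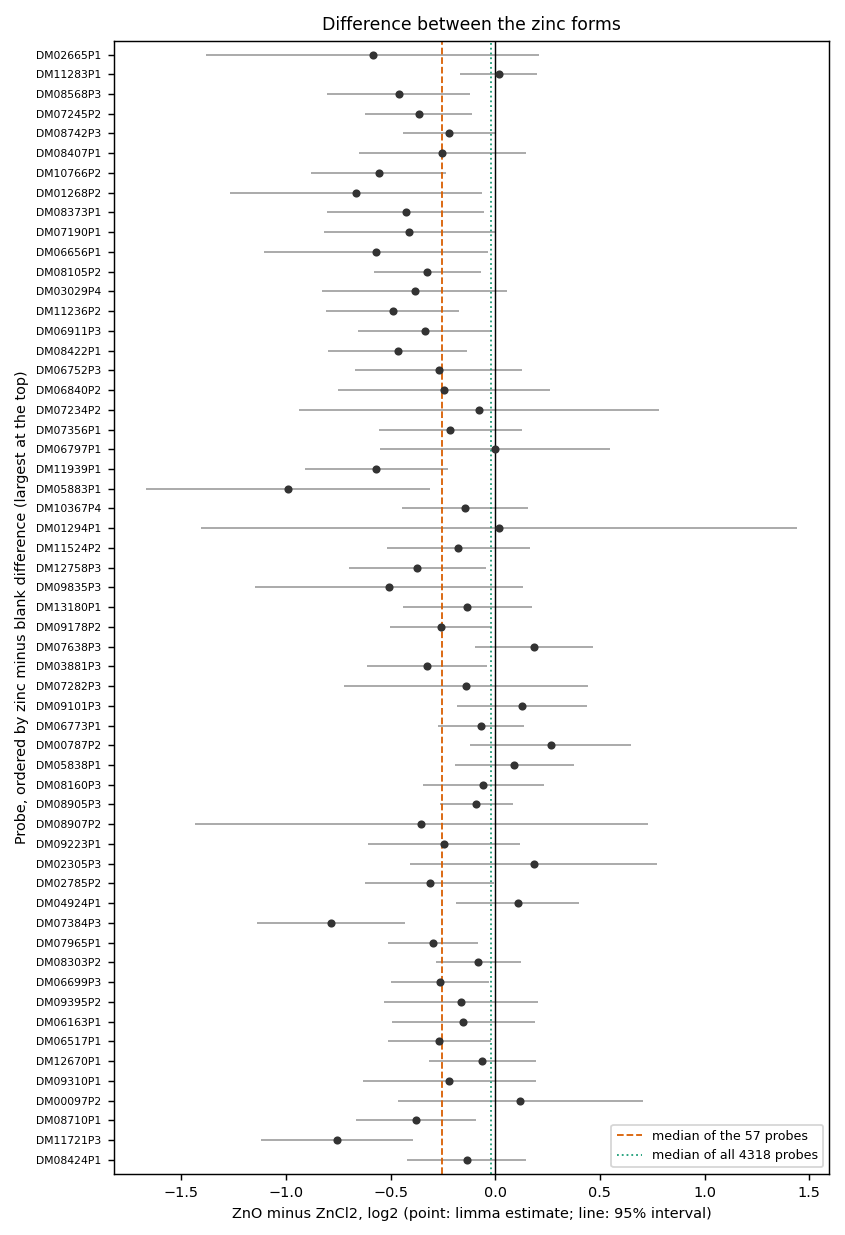
ZnO minus ZnCl2 difference (log2, horizontal axis) of each of the 57 probes, with its 95% interval from limma, ordered by zinc minus blank difference with the largest at the top. The dashed line is the median of the 57 (-0.25) and the dotted line that of all 4318 probes (-0.02); 48 points lie left of 0.

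Among single probes the lowest ZnO level relative to ZnCl2 was that of DM05883P1, with -0.47, 1.12, -0.61 and -0.36 in ZnO, 1.41, 0.75, 0.59 and 0.89 in ZnCl2, and -1.15, -0.60, -1.51 and -1.35 in the blanks. The difference was -0.99 (95% interval -1.67 to -0.31, limma adjusted p = 0.84), and ZnO replicate 2 was the only ZnO array within the range of ZnCl2. DM07384P3 had 0.16, 0.33, -0.66 and -0.69 in ZnO, 0.59, 0.86, 0.34 and 0.50 in ZnCl2, and -0.50, -0.79, -0.99 and -1.57 in the blanks, which put ZnO at -0.79 relative to ZnCl2 (95% interval from -1.14 to -0.43, adjusted p = 0.71 in limma). Its ZnO arrays lay below all ZnCl2 arrays. DM11721P3 had -0.16, 0.37, -0.28 and -0.60 in ZnO, 0.56, 0.61, 0.34 and 0.84 in ZnCl2, and -0.74, -0.80, -0.98 and -0.85 in the blanks, which put ZnO at -0.76 relative to ZnCl2 (95% interval from -1.12 to -0.39, adjusted p = 0.71 in limma). Within each orientation its ZnO arrays were the lower pair. DM01268P2, listed above, differed by -0.67 (interval -1.27 to -0.06, limma adjusted p = 0.84), but by -0.41 without ZnO replicate 2 and by -0.91 without ZnO replicate 1.

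At the other end, DM00787P2 had 0.86, 0.54, -0.05 and 0.51 in ZnO, 0.34, 0.17, 0.38 and -0.08 in ZnCl2, and -0.87, -1.10, -0.77 and -0.91 in the blanks. Its ZnO minus ZnCl2 difference was 0.27 (95% interval from -0.12 to 0.65, adjusted p = 0.84 in limma), and the forms overlapped in Cy5. DM07638P3 (0.19, interval -0.10 to 0.47), DM02305P3 (0.18, interval -0.41 to 0.77) and DM09101P3 (0.13, interval -0.18 to 0.44) followed, each with an interval that includes 0. These 4 differences moved with single arrays: DM00787P2 ranged from 0.14 (without ZnO replicate 1) to 0.43, DM07638P3 from 0.095 (without ZnCl2 replicate 4) to 0.28, DM02305P3 from 0.037 (without ZnO replicate 2) to 0.42 and DM09101P3 from 0.062 (without ZnO replicate 4) to 0.22. The highest value came without ZnO replicate 3 in each of the 4. The largest differences upward were thus smaller than those downward, and no interval of the 9 probes higher in ZnO lay above 0. The 95% interval was within 2-fold for 48 of the 57 (90.4% of all probes) and within 1.5-fold for 24 (78.7% of all probes), so the remaining intervals reach beyond those sizes.

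Over arrays, the median ratio of the 57 probes was 0.24, 0.41, -0.0050 and 0.26 in ZnO replicates 1 to 4, 0.41, 0.69, 0.34 and 0.56 in ZnCl2, and -0.98, -1.18, -1.23 and -1.30 in the blanks, while the medians of all probes on the same arrays lay between -0.06 and 0.02. The probes moved together between pools of the same group and dye, so the counts of probes lower in ZnO are not counts of independent differences. ZnO replicate 2 exceeded ZnO replicate 1 in 42 of the 57 (55.5% of all probes), and ZnO replicate 4 exceeded ZnO replicate 3 in 39 (46.2% of all probes). ZnCl2 replicate 2 exceeded ZnCl2 replicate 1 in 46 (46.8% of all probes), and ZnCl2 replicate 4 exceeded ZnCl2 replicate 3 in 41 (52.9% of all probes). In both zinc forms, then, replicates 2 and 4 were the higher arrays of their pairs for most of the 57. The blanks went the other way, with replicate 1 above replicate 2 in 48 of the 57 (54.3% of all probes) and replicate 3 above replicate 4 in 36 (44.5% of all probes). Counted within orientations, ZnO replicate 1 was the lowest of the 4 Cy3 zinc arrays in 27 probes and ZnO replicate 3 the lowest of the 4 Cy5 zinc arrays in 34. ZnCl2 replicates 2 and 4 were the highest of theirs in 38 and 37. Without ZnO replicate 3 the median ZnO minus ZnCl2 difference was -0.18, with 44 of the 57 lower in ZnO. Which property of the pools these shifts follow was not tested.

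Ratios also varied with the dye that carried the pool. A dye term (ratio with the pool in Cy3 minus ratio with it in Cy5) passed in limma for 19 of the 57, close to the 36.7% of all probes. Of these, 16 were higher in Cy3 (22% of all probes) and 3 higher in Cy5 (14.8% of all probes). The largest belonged to DM00097P2, with 1.28, 1.62, -0.77 and -0.88 in ZnO, 1.04, 1.07, -0.44 and -0.90 in ZnCl2, and -0.13, -0.63, -1.45 and -1.07 in the blanks. All its Cy3 arrays stood above the Cy5 arrays of the same group, and the dye term was 1.62 ± 0.22 (SE, limma adjusted p = 0.00028). DM02305P3 had 1.29, 1.34, -0.80 and -0.27 in ZnO, 0.99, 0.47, -0.13 and -0.51 in ZnCl2, and -0.79, -0.52, -1.14 and -1.05 in the blanks, with a dye term of 1.11 ± 0.22 (SE, limma adjusted p = 0.0029). In such probes zinc and blank arrays were comparable within an orientation only.

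Whether the size of the rise depended on the orientation was examined as an interaction, the zinc minus blank difference in Cy3 minus that in Cy5. Orientation again stands for dye and set of pools together. The interaction is built from the values that chose the probes, and the choice asked for separation in both orientations. A probe raised in 1 orientation only was thus less likely to be among the 57. The count of calls in the 57 is therefore in part fixed by the choice. The median rise was 1.58 in the Cy3 arrays and 1.34 in the Cy5 arrays, and 47 of the 57 had a positive interaction, with a median of 0.14 (2172 of all probes, median 0.0014). No interaction passed: limma called 0 of the 57 and 0 of the 4318 (0% of all probes), with adjusted p of at least 0.76, and an unadjusted p under 0.05 was found for 2 of the 57 (6.21% of all probes). These 2 were DM00097P2 (1.12, 95% interval 0.48 to 1.76) and DM02305P3 (1.00, interval 0.35 to 1.66), which also had large dye terms. DM07234P2 had 1.06 with an interval of -0.21 to 2.32. On the other side were DM09395P2 at -0.44 (interval -1.03 to 0.16), DM09223P1 at -0.23 (interval -0.93 to 0.47) and DM08568P3 at -0.20 (interval -0.84 to 0.44). The half-width of the interval was 0.31 to 2.60, with a median of 0.58, so the size of interaction that could be detected differed widely between probes.

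Probes picked in 1 orientation were also counted in the other. Size and separation in the Cy3 arrays alone picked 82 probes. In the Cy5 arrays, which took no part in that choice, 80 of them were higher with zinc than in the blanks (2184 of all 4318 probes). The difference was at least 1 in 48 of the 82 (2.34% of all probes), and its median was 1.09 (0.0031 over all probes). The same conditions in the Cy5 arrays alone picked 97 probes, of which 62 were higher with zinc in the Cy3 arrays (2163 of all 4318 probes). The difference was at least 1 in 48 of the 97 (2.01% of all probes), and its median was 0.90. The sign was thus kept less often by the Cy5 picks than by the Cy3 picks. Of the 57 probes, 47 had a difference of at least 1 in both orientations, where 1.16% of all probes did. Both orientations entered the choice of the 57, so this count describes the choice.

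**Figure D5:**
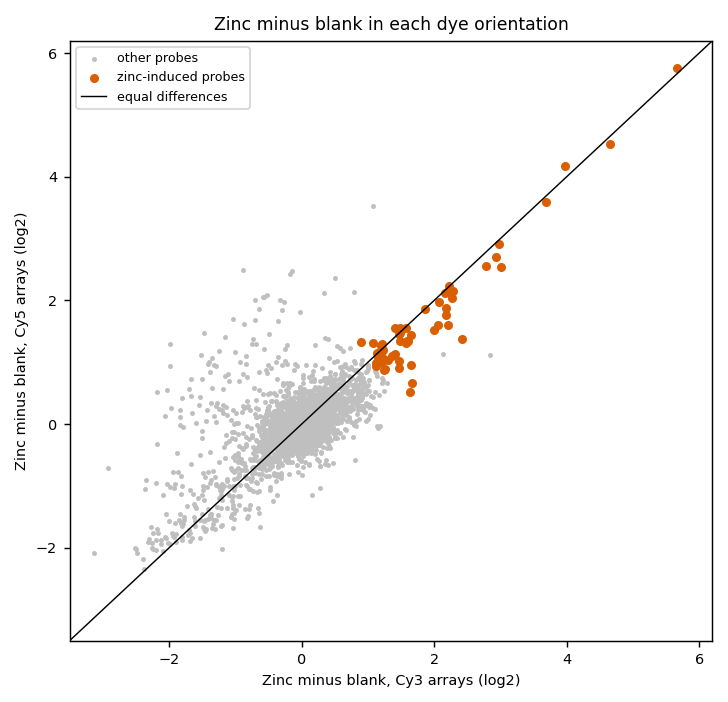
Zinc minus blank difference (log2) in the Cy5 arrays against that in the Cy3 arrays (4 zinc and 2 blank arrays each) for the 57 probes (orange) and the other probes (grey), with the line of equal differences. The 57 probes run along the line up to 5.67 in Cy3 and 5.77 in Cy5 for DM02665P1; DM00097P2, DM07234P2 and DM02305P3 lie furthest below it.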

How the data were processed

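Per the labels, 100 ng of RNA per pool was amplified and labelled for 2-colour Agilent arrays. The values are log2 ratios as deposited by the authors, 4318 probes by 12 arrays with 0 missing values. Per the submitters' processing notes limma was used, its version not given. Not given in the sources are the background correction, the normalization and how probes were selected. Intensities were not used here. The direction (exposure sample over reference), the log base and the turning of dye-swapped arrays are stated by no header and were taken from the values. A ratio turned the other way could not fall below -1.58 with an equal mixture of 3 groups, and 16 of the 57 probes had blank means below it. Of 82 probes picked on the Cy3 arrays alone, 80 kept their sign in the Cy5 arrays. Of 97 picked on the Cy5 arrays alone, only 62 kept it in the Cy3 arrays. Base 2 was assumed, with levels near those of the mixture.

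lmFit and eBayes of limma 3.58.1, under R 4.3.3, were applied to all probes with group means plus 1 dye term (8 residual degrees of freedom). The interaction fit had a mean per group and orientation (6 residual degrees of freedom). P-values are two-sided, Benjamini-Hochberg adjusted over 4318 probes, threshold 0.05, and intervals are 95%. The fits were tested on simulated data with noise independent between probes. The added differences were larger than the median difference between the forms here. That test therefore does not cover small differences or probes that shift together. Replicates were pools from different exposures. Whether their mothers came from 1 culture is not stated, and p-values therefore cover the spread among these pools alone, which may be technical. Precision is limited by the 12 arrays. Over all probes, residuals of same-numbered arrays correlated at -0.62 to 0.45 over 12 pairs, with 1 pair above 0.1. The replicate numbers are not stated to pair pools and were not taken to pair arrays. The 57 probes, groupings and tests were chosen with earlier results of these data known. Named were the 12 largest rises, the extremes of ZnO minus ZnCl2, interaction and residual SD, and probes at the thresholds. A few others were chosen after their values were seen: the ends of a range or count (DM07965P1, DM03029P4, DM06911P3). Alternatives were other dye handling, array scaling, eBayes settings, thresholds and leaving out each array. Gene lists could not be used without names.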

Additional observations from a re-analysis of the deposited data

Results flagged for a closer look

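Among 84 groups of 4 arrays examined (28 named probes in 3 groups), 7 had 1 array set apart from the other 3 by a gap that is large for the group's range. Chance does so in about 1 of 20 unselected groups, which is no baseline here, because several of these probes were named for extreme values that 1 outlying array can produce. Of these arrays, 4 were ZnO and 3 were blanks. DM02665P1 was -1.13 in ZnO replicate 1, against 0.60 to 0.79 in the other ZnO arrays. DM05883P1 was 1.12 in ZnO replicate 2, against -0.61 to -0.36. DM10766P2 was 0.53 in ZnO replicate 2, against -0.05 to 0.02, and DM08303P2 was 0.31 in ZnO replicate 4, against 0.11 to 0.14. In the blanks, DM08568P3 was -3.03 in replicate 1, against -3.79 to -3.68 in the others. DM08105P2 was -1.88 in blank replicate 2, against -1.67 to -1.64, and DM07234P2 was -2.47 there, against -1.43 to -1.28.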

How the results depend on the processing

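The number of probes was 85 at a difference of at least 0.8 (median rise 1.17), 35 at a difference of at least 2.38-fold (median rise 1.91), 51 with separation over all arrays together, 66 with none asked, and 55 to 71 without single arrays, which kept 54 to 57 of the 57 and gave a median rise of 1.33 to 1.48. ZnO against ZnCl2 gave 0 calls, over all probes and in the 57, under each alternative run, the replicate block included (0 calls; the block leaves the estimates as they were). The median ZnO minus ZnCl2 difference of the 57 was -0.28 to -0.18 under changes of scaling and weights and -0.32 to -0.18 without single arrays, with 44 to 50 probes lower in ZnO. The interaction gave 0 calls in the 57 throughout. Over all probes it gave 0 to 40 without single arrays, the 40 without blank replicate 1 and 1 without blank replicate 4. The dye term was called for 13 to 21 of the 57 without single arrays, against 19 with all, and for 24 at an adjusted p under 0.1. In 560 refits of the 28 named probes for ZnO against ZnCl2 none was called and 22 changed sign. In the Cy3 arrays alone these were DM11283P1 (-0.039) and DM08407P1 (0.014). In the Cy5 arrays alone they were DM02305P3 (-0.22), DM01294P1 (-0.80), DM00097P2 (-0.15), DM07234P2 (0.50), DM09395P2 (0.018), DM08907P2 (0.70) and DM08303P2 (0.085). DM11283P1 was -0.033 with columns centred and scaled and -0.0024 with array weights. Without single arrays DM01294P1 ranged from -0.73 to 0.46, DM11283P1 from -0.026 to 0.054, DM00097P2 from -0.067 to 0.26 and DM07234P2 from -0.41 to 0.19. The cause was not tested. The median level against the mixture was 0.0083 with centred columns, and the median SD between pools 0.28 with no dye term, against 0.22.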
